A study of Mus musculus with 10 samples.

Results

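The genes described here stood out in sorted regulatory T (Treg) cells from E.G7 tumours and were much lower in the other Treg libraries of the same series. A total of 113 of 55291 counted genes met the rule, or 0.972% of the 11623 genes at 3 CPM or more in E.G7. The 113 were chosen by their measured levels. Counts were scaled to counts per 1000000 of the library total (CPM) and averaged by group. A gene was taken when its E.G7 mean was at least 3 CPM and at least 10 times both the Hepa1-6 mean and the LN mean, each raised by 0.01 CPM. Before names were considered 145 genes passed (0.262% of the table), and 32 were dropped by their symbols: 18 predicted Gm genes, 9 clone-named Rik genes and 5 Slc transporter genes. The E.G7 levels and their ratios to Hepa1-6 and LN therefore chose the genes, and both are given below as description, with no test. The same rule picked 527 genes for Hepa1-6 and 7 genes for LN.

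E.G7 Treg cells (2 libraries) came from tumours of Foxp3YFP-cre mice injected under the skin with E.G7 cells and killed on day 21. Hepa1-6 Treg cells (4 libraries) came from Foxp3YFP-cre mice given Hepa1-6 cells in the same way and killed on day 23, and LN Treg cells (4 libraries) from lymph nodes of tumour-free Foxp3YFP-cre mice. All mice thus carried the Foxp3 reporter, and tumour Treg cells were sorted from isolated CD4+ T cells; total RNA was sequenced on a BGISEQ-500. The labels do not say whether the libraries of a group stem from different animals. P-values here therefore reflect library-to-library spread, part of which may be technical. No library of cultured E.G7 cells, of sorted stroma or of a whole tumour was analysed here, so a transcript could not be assigned to a cell by direct comparison.

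E.G7 is a derivative of EL4, a mouse T lymphoma line, that was engineered to make ovalbumin, and Hepa1-6 is a mouse hepatoma line. A T lymphoma shares surface molecules with normal T cells, and tumour lines often transcribe germ line genes, embryonic transcription factors or genes of immature lymphocytes that mature T cells keep silent. Tumour stroma, the fibroblasts, vessel wall cells and matrix around tumour cells, transcribes laminins, fibulins, collagens and smooth muscle actin. Because the libraries are bulk RNA, fewer cells of a type and less RNA per cell cannot be told apart.

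Starts of 4 of the genes are shown first, because they stand for the germ line, immature lymphocyte and homeobox groups on which the description turns. Each is 250 bases before to 50 bases after the RefSeq gene start (GRCm38.p6), 5′ to 3′ on the gene's strand, with CG dinucleotides in capitals. Trap1a is at chrX:139333433-139333732 (plus strand), Dntt at chr19:41029025-41029324 (plus strand), Tex19.2 at chr11:121118628-121118927 (minus strand) and Hoxa11 at chr6:52245761-52246060 (minus strand).
Trap1a: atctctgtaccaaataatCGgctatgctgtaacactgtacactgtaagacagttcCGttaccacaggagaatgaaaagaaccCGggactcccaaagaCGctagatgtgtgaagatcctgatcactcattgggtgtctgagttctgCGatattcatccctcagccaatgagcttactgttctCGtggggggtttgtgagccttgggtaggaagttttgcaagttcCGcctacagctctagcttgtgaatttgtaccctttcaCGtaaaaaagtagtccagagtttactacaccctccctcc
Dntt: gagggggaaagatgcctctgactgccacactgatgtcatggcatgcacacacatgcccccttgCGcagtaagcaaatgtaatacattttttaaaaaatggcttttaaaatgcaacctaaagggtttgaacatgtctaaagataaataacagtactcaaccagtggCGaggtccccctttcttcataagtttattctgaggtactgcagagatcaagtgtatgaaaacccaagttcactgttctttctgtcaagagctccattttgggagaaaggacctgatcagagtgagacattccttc
Tex19.2: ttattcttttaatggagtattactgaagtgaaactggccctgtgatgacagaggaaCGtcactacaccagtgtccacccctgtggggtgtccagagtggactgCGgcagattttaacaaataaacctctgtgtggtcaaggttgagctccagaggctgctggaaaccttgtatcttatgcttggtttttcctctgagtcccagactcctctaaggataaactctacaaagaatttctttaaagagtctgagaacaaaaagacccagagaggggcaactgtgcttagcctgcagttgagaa
Hoxa11: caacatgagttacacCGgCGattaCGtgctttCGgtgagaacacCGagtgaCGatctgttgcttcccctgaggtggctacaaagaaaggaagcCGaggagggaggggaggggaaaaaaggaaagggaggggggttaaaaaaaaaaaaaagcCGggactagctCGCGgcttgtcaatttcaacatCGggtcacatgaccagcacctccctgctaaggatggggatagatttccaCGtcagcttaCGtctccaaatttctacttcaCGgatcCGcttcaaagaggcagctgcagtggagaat

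The Dntt and Tex19.2 windows held 2 CG dinucleotides each, the Trap1a window 8 and the Hoxa11 window 15. Of the 113 genes, 86 had a RefSeq promoter window, and their median was 9 CG dinucleotides, against 7 over all 27025 windows of that length. A count of 10 or more was found in 46.5% of the matched genes and in 43.9% of all windows. The E-box letters CACGTG, which read the same on both strands, stood in 8.14% of the matched windows and 7.24% of all. The letters TGTGGT, the core bound by Runx factors, were in 11.6% on either strand, against 16.9% of all windows. TATAAA was in 11.6%, against 14.2%, and TCCCGC, the core of E2F sites, in 23.3%, against 20.02%. These 4 motifs do not contain each other.

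The phrase "only in E.G7" held literally for few of the genes. Of the 113, 97 had at least 1 count in a Hepa1-6 or LN library, and 16 had a count in none of those 8 libraries. The 16 were Dclk3, Adam18, Hoxa11os, Lrguk, Rhox2-ps, Shisa6, Fam205c, Fgf21, Megf10, Atp6ap1l, Hoxd8, Kif26a, Fjx1, Hoxa13, Rhox7-ps2 and Speer4f1, with E.G7 means from 3.01 to 21.6 CPM. A count of 0 over a group allows up to 3 counts, or 0.0283 CPM over Hepa1-6 and 0.0318 CPM over LN; such limits cover counting error only. In each of the 113 the lower E.G7 library lay above all 8 others, by at least 6.00 times where another library had a count. The rule had set the group means at least 10 times apart, which nearly fixed this. The share over all genes was not counted. In Hepa1-6, 47 of the genes had a count in every library and 15 reached a mean of 1 CPM; in LN the numbers were 28 and 8.

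Summed over the 113 genes, E.G7 libraries held 2172 and 2218 CPM, which was 0.217% and 0.222% of their counts. Hepa1-6 libraries held 50.8, 56.0, 54.8 and 56.6 CPM, and LN libraries 37.3, 30.4, 30.002 and 29.4 CPM. The groups did not overlap, which the rule nearly fixed by setting the group means of each gene apart. The median gene stood at 8.07 CPM in E.G7, 0.114 CPM in Hepa1-6 and 0.0432 CPM in LN. In E.G7, 26 genes were at 30 CPM or more, 23 between 10 and 30 CPM and 64 below 10 CPM, and the 10 highest made up 36.3% of the sum. Total counts were 26663336 and 26585350 in E.G7, 26224286 to 26665325 in Hepa1-6 and 22665563 to 24472849 in LN. The Treg marker Foxp3 stood at 47.6 and 54.5 CPM in E.G7, at 67.3 to 89.4 CPM in Hepa1-6 and at 102 to 131 CPM in LN.

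**Figure D1:**
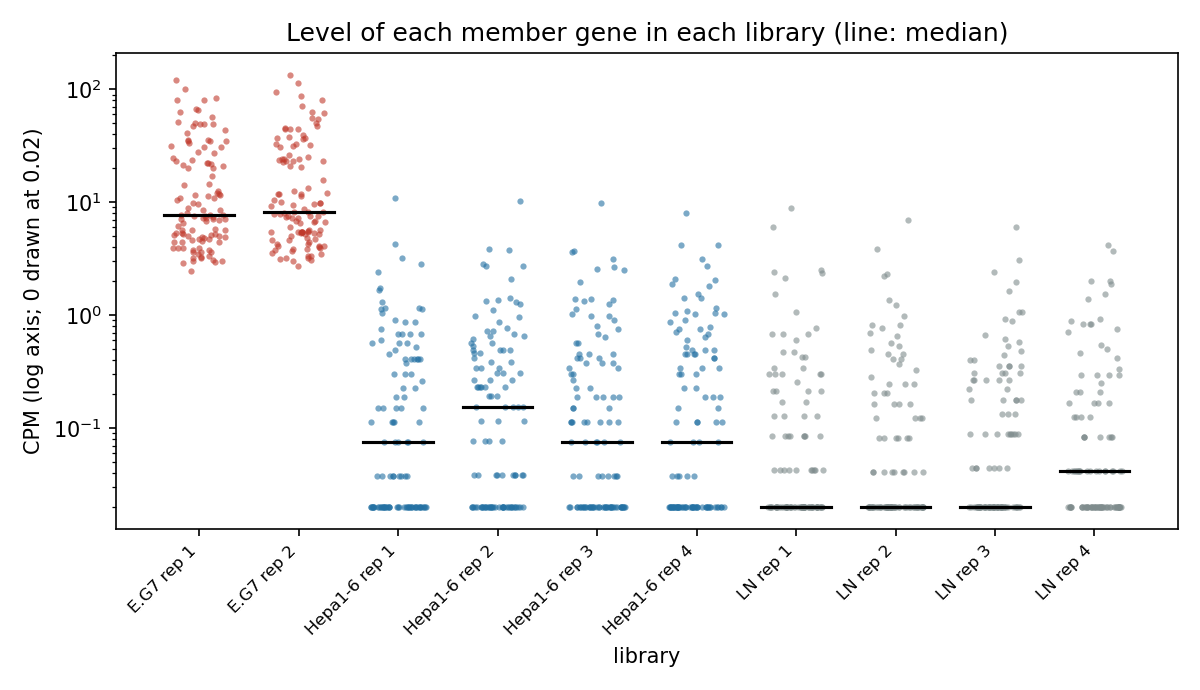
Level of each of the 113 genes in each library, in CPM on a log axis with 0 drawn at 0.02; the black line is the median of the library. The E.G7 libraries sit above all others, and many genes are at 0 in Hepa1-6 and LN libraries.

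Per kilobase of gene length (RPKM, computed from the counts), the 10 highest genes in E.G7 were Rps3a2 (113 RPKM), Trap1a (109), Insl5 (47.5), Stard10 (44.4), Esm1 (40.4), Wif1 (33.1), H2-Q2 (29.5), Acta2 (25.5), Xlr3c (25.5) and Tex19.2 (23.6). These genes belong to unlike programmes: a tumour antigen, a gut hormone, a lipid transfer protein, an endothelial proteoglycan, a Wnt inhibitor, smooth muscle actin and germ line families. Rps3a2 is a processed pseudogene of a ribosomal protein gene, and H2-Q2, Xlr3c, Clec2m, Speer4f1, Klk1b14-ps and the Rhox pseudogenes also have close relatives in sequence. The labels do not say how reads that fit more than 1 copy were counted, so the levels of these genes are uncertain. Copies could differ in level: in LN, Xlr3b averaged 10.2 CPM and Xlr3c 0.117 CPM. Of the 113, 107 are protein coding, 3 are unprocessed pseudogenes, 2 are processed transcripts and 1 is a processed pseudogene (GENCODE M21 for 112, RefSeq for Clec2m). Exons of 27 overlap those of another gene, and no source used here states the strand setting of the counting, so those levels may hold reads of both. Examples are Fgd1 (with Tsr2), Prcd (with Cygb), Sapcd1 (with Vwa7) and Zfp575 (with Ethe1).

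The germ line and X-linked genes were 11 of the 113 and held 279 and 290 CPM together in E.G7, 1.94 to 3.27 CPM in Hepa1-6 and 0.922 to 1.24 CPM in LN. Trap1a encodes the P1A antigen, which is made by germ cells and some mouse tumours and is seen by killer T cells (chromosome X, 139333683 to 139338169, mm10). It stood at 122 and 135 CPM in E.G7, at 0, 0, 0 and 0.188 CPM in Hepa1-6, and at 0, 0.0409, 0.0441 and 0.126 CPM in LN. It was the highest of the 113 in CPM, and 3 of the 4 Hepa1-6 libraries had no count. Tex19.2, a germ cell gene (chromosome 11, 121116215 to 121118677), stood at 49.0 and 47.6 CPM in E.G7, at 0, 0.0381, 0.190 and 0 CPM in Hepa1-6 and at no more than 0.0441 CPM in LN. Its neighbour in sequence, Tex19.1, was no member and stood at 1.46 and 1.96 CPM in E.G7. Xlr3c, of the X-linked lymphocyte-regulated family (chromosome X, 73254540 to 73265390), stood at 41.5 and 39.2 CPM in E.G7, against at most 0.113 CPM in Hepa1-6 and 0.256 CPM in LN. Xlr had 23.2 and 23.3 CPM in E.G7, 1.30 to 1.81 CPM in Hepa1-6 and 0.684 to 1.06 CPM in LN. The sperm surface genes Adam3 and Adam18 averaged 12.4 and 10.8 CPM in E.G7. The other members of the group were Esx1 (a placental and testis homeobox gene), Lrguk, Speer4f1, Rhox2-ps and Rhox7-ps2, at 3.01 to 5.35 CPM in E.G7 means.

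Genes of the Xlr and Rhox families that the rule did not take were also present, some in all groups. Among 58 family genes, 11 reached 1 CPM in E.G7, 9 in Hepa1-6 and 6 in LN; the families were picked after the values were seen and carry no test. Xlr3b averaged 26.1 CPM in E.G7, 6.04 CPM in Hepa1-6 and 10.2 CPM in LN. Rhox5, a homeobox gene of the reproductive tract that many mouse tumours transcribe, is on the germ line list and was tested there. It stood at 333 and 348 CPM in E.G7 and averaged 93.9 ± 6.85 CPM in Hepa1-6 and 0.116 ± 0.0925 CPM in LN (SD, n = 4 each). Rhox5 was higher in E.G7 than in LN (log2 11.54, SE 0.16, edgeR adjusted p = 5.75e-17) and than in Hepa1-6 (log2 1.71, SE 0.088, adjusted p = 2.61e-10).

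Lymphoid and immune genes were 10 of the 113, at 243 and 235 CPM together in E.G7, 4.65 to 7.41 CPM in Hepa1-6 and 6.97 to 14.3 CPM in LN. Dntt encodes terminal deoxynucleotidyl transferase, which adds nucleotides to antigen receptor joints in immature lymphocytes (chromosome 19, 41029275 to 41059525). It stood at 50.3 and 44.4 CPM in E.G7, at 2.40, 2.75, 2.58 and 2.71 CPM in Hepa1-6 and at 2.52, 2.33, 3.09 and 2.01 CPM in LN. The ratio of means was 18.1 to Hepa1-6 and 19.02 to LN, and all 8 other libraries held Dntt reads at like levels. Arpp21, which encodes a phosphoprotein of thymocytes and brain (chromosome 9, 112065091 to 112235938), stood at 22.2 and 24.3 CPM in E.G7, at 0.0752 to 0.229 CPM in Hepa1-6 and at 0.695 to 2.39 CPM in LN. The class I related gene H2-Q2 had 65.9 and 62.9 CPM in E.G7, 1.31 to 3.15 CPM in Hepa1-6 and 8.89, 3.84, 1.99 and 3.73 CPM in LN. S1pr5, a sphingosine phosphate receptor of natural killer cells, averaged 36.1 CPM in E.G7, and Timd2, a receptor of the TIM family, 34.0 CPM. Prss57 (a neutrophil serine protease), Rgs13 (a regulator of G protein signals), Nuggc (a germinal centre gene), Il17f (a cytokine of Th17 cells) and Clec2m averaged 3.17 to 12.1 CPM in E.G7.

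Transcription factors of the embryo and their cofactors were 10 of the 113, among them Hoxa7, Hoxa11, its antisense partner Hoxa11os, Hoxa13, Hoxd8, the coactivator Eya1, Dlx1, Grhl2 and Tbx19. The 10 held 97.2 and 110 CPM together in E.G7, 1.24 to 2.25 CPM in Hepa1-6 and 0.368 to 1.06 CPM in LN. Tbx19, a T-box factor of the pituitary, stood at 31.1 and 30.7 CPM in E.G7 and Grhl2, an epithelial factor, at 21.1 and 23.8 CPM. Hoxa11 (chromosome 6, 52242106 to 52245810) had 5.66 and 9.55 CPM in E.G7, no count in Hepa1-6 and 1 count in LN. Grhl2 had 0.339 to 0.953 CPM in Hepa1-6 and 0 to 0.0854 CPM in LN, and Tbx19 at most 0.0759 CPM in Hepa1-6 and 0.0882 CPM in LN. Of 42 Hox genes in the table, 13 reached a mean of 1 CPM in E.G7; in Hepa1-6 it was Hoxa10 alone, and in LN no Hox gene reached it. The 8 that were no members included Hoxa10 (13.6 and 12.7 CPM in E.G7, 5.56 CPM in Hepa1-6 means), Hoxb13 (4.61 and 4.36 CPM), Hoxb6 (1.95 and 2.11 CPM) and Hoxc6 (1.28 and 2.52 CPM), the last 3 also as E.G7 levels, and all 4 Hox clusters had reads in E.G7. Hoxa9, on the leukaemia factor list, was at 0.488 and 0.527 CPM. Among the other genes of the Eya and Dlx families, Dlx4 came nearest to the rule with 11.7 and 10.4 CPM in E.G7, 2.39 CPM in Hepa1-6 and no count in LN. These families were also picked after the values were seen and carry no test.

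**Figure D2:**
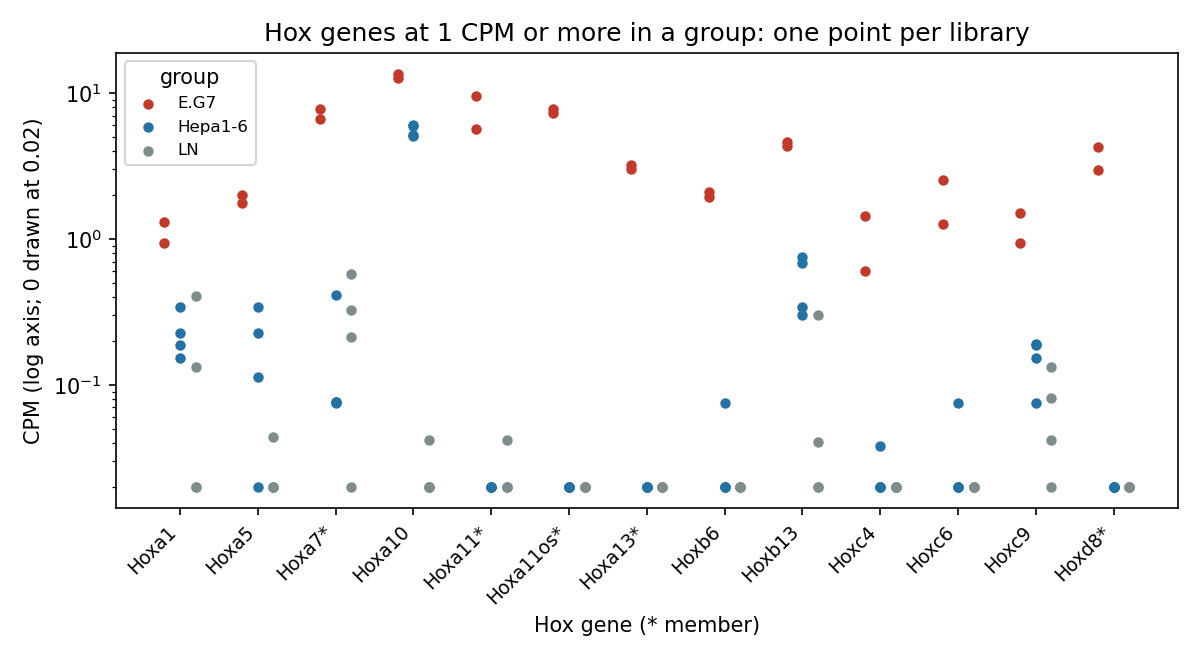
Hox genes that reached a group mean of 1 CPM, in CPM per library on a log axis with 0 drawn at 0.02; asterisks mark members. Both E.G7 libraries are at 0.60 CPM or more for all 13 genes, and Hoxa10 is the gene above 1 CPM in Hepa1-6.

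Wnt pathway genes were 5 of the 113 and held 104 and 104 CPM together in E.G7. Wif1 encodes a secreted protein that binds Wnt ligands and blocks them (chromosome 10, 121033960 to 121100650). It stood at 80.1 and 80.5 CPM in E.G7, at 0, 0, 0 and 0.414 CPM in Hepa1-6 and at 0.0427, 0, 0 and 0.0419 CPM in LN. The only Hepa1-6 library with Wif1 reads was replicate 4, which was also the only Hepa1-6 library with Trap1a reads. Over the 113, genes with reads in a single Hepa1-6 library numbered 3, 4, 3 and 5 for replicates 1, 2, 3 and 4. The other inhibitor, Sfrp1, averaged 6.87 CPM in E.G7. The receptors Ptk7 and Ror2 averaged 8.07 and 5.52 CPM in E.G7, and the ligand Wnt8b 3.17 CPM. Among 10 secreted Wnt antagonists, Dkk3, Dkk2 and Sfrp2 were no members. Dkk3 averaged 1.05 CPM in E.G7, 8.18 CPM in Hepa1-6 and 0.979 CPM in LN.

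Matrix genes were 6 of the 113, at 186 and 189 CPM together in E.G7, 4.55 to 5.70 CPM in Hepa1-6 and 1.72 to 3.35 CPM in LN. Fbln1, which encodes the matrix glycoprotein fibulin, stood at 33.7 and 32.5 CPM in E.G7, at 0.563, 1.11, 1.02 and 1.43 CPM in Hepa1-6 and at 1.07, 1.23, 0.529 and 1.89 CPM in LN (chromosome 15, 85205949 to 85286535). Lamb1, a laminin chain of basement membranes, had 49.4 and 44.9 CPM in E.G7, 0.114 to 1.05 CPM in Hepa1-6 and 0.0419 to 0.245 CPM in LN. Esm1, which encodes the proteoglycan endocan of endothelial cells, had 81.3 and 88.1 CPM in E.G7, 2.11 to 3.23 CPM in Hepa1-6 and 0 to 0.210 CPM in LN. Svep1, Smoc1 and Ism2 averaged 5.95 to 9.11 CPM in E.G7. The contractile genes were Acta2, Mylk4, Myzap, Tln2 and Akap6, at 164 and 157 CPM together in E.G7. Acta2, the smooth muscle actin gene (chromosome 19, 34241090 to 34255590), stood at 57.3 and 54.9 CPM in E.G7, at 1.73, 2.10, 1.97 and 3.16 CPM in Hepa1-6 and at 2.35, 1.35, 2.43 and 2.01 CPM in LN. Mylk4, a myosin light chain kinase gene, averaged 33.2 CPM in E.G7 with 1 count over Hepa1-6 and 1 over LN.

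**Figure D3:**
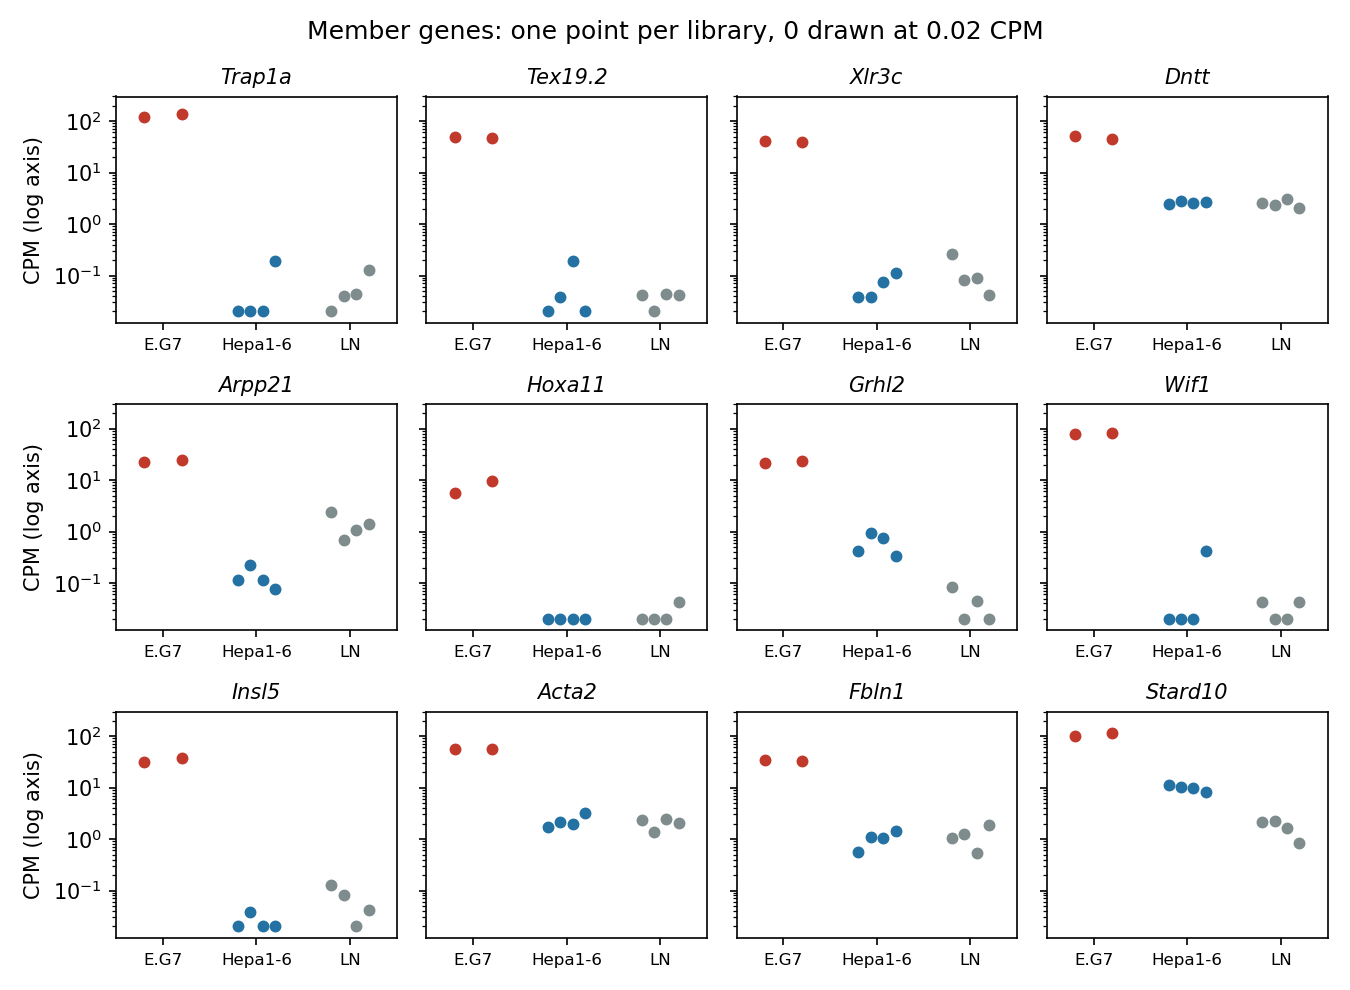
Levels of 12 of the 113 genes, in CPM on a log axis with 0 drawn at 0.02; each point is a library and groups run E.G7, Hepa1-6, LN. Dntt and Acta2 lie between 1.35 and 3.16 CPM in both other groups, while Trap1a, Tex19.2, Hoxa11 and Insl5 lie at or below 0.190 CPM there.

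Epithelial and hormone genes were 6 of the 113. Insl5 encodes a relaxin family hormone of the gut (chromosome 4, 103017872 to 103026842) and stood at 31.5 and 37.3 CPM in E.G7, with 1 count over Hepa1-6 and at most 0.128 CPM in LN. The membrane mucin gene Muc13 averaged 16.3 CPM in E.G7, and the motor gene Myo5b 20.2 CPM. The pancreatic carboxypeptidase gene Cpb1, the hormone gene Fgf21 and Endou averaged 4.28 to 7.47 CPM. Lipid and enzyme genes were also 6. Stard10, a lipid transfer protein gene (chromosome 7, 101317086 to 101346626), stood at 100 and 115 CPM in E.G7, at 11.0, 10.3, 9.94 and 8.09 CPM in Hepa1-6 and at 2.14, 2.21, 1.63 and 0.838 CPM in LN. It was the member highest in Hepa1-6, with a ratio of means of 10.9 to Hepa1-6 and 63.1 to LN. Apod, the apolipoprotein D gene, had 51.2 and 56.0 CPM in E.G7, 0.863 to 1.88 CPM in Hepa1-6 and 1 count in LN. Hmgcll1, Gstm3, Chst1 and St6gal2 averaged 3.42 to 13.0 CPM in E.G7.

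Genes best known from neurons and excitable cells formed the largest group, with 24 of the 113 and 421 and 415 CPM together in E.G7, 5.69 to 6.98 CPM in Hepa1-6 and 1.49 to 3.31 CPM in LN. Syt13, a synaptotagmin gene, stood at 63.0 and 61.5 CPM in E.G7, 0 to 0.305 CPM in Hepa1-6 and 0 to 0.132 CPM in LN. Cacna2d1 (a calcium channel subunit), Nos1 (neuronal nitric oxide synthase), Uchl1 (a ubiquitin hydrolase) and Kcne4 (a potassium channel subunit) averaged 31.7 to 47.0 CPM in E.G7. Pcdh10, Sgip1, Erbb4, Dclk3 and Syngr1 averaged 21.4 to 26.1 CPM, and Dclk3 was without a count in all 8 other libraries. The rest were Kcnma1, Elfn2, Mdga1, Dlgap1, Dlgap3, Shisa6, Syt3, Elavl4, Ap3b2, Pcdh7, Cdh22, Mapk10, Pde10a and Gng4, at 3.47 to 11.3 CPM. The Schwann and neural marker list holds none of these genes. Of its 6 tested genes, the neuronal tubulin gene Tubb3 was higher in E.G7 (2.03 CPM) than in Hepa1-6 (0.29 CPM) and LN (0.23 CPM). The call against Hepa1-6 was lost without E.G7 replicate 1, without E.G7 replicate 2 and with the replicate block. Mbp was lower in E.G7 than in LN, and Sox10, Cdh19, Gap43 and Sox2 had no count in E.G7. The list summed to 136 and 124 CPM in E.G7, 118 to 126 CPM in Hepa1-6 and 271 to 293 CPM in LN, nearly all of it Mbp.

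A further 30 genes were not placed in a group. Mpp4, a membrane scaffold gene of the retina, had 67.7 and 70.7 CPM in E.G7 and Cpeb1, a regulator of translation in oocytes and neurons, 43.4 and 45.3 CPM. Thsd7b, Tmtc1, Fgd1 and Prcd averaged 12.6 to 25.5 CPM in E.G7. Zfp575, Crnde, Klk1b14-ps, Hecw2, Nwd1, Greb1, Zfp629, Best3, Sapcd1, Cdcp2, Snx31, Tctex1d1, Csrnp3, Fam167b, Fam205c, Megf10, Atp6ap1l, Glrp1, Serinc2, Kif26a, Fjx1 and Usp51 averaged 3.19 to 11.8 CPM. Rps3a2, also among the 30, had 83.7 and 95.7 CPM in E.G7, 3.68 to 4.28 CPM in Hepa1-6 and 4.15 to 7.03 CPM in LN. The assignment of genes to groups was made by known function with their values in view.

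Values on either side of the limits of the rule were close. The genes just inside the 3 CPM limit were Speer4f1 (3.01 CPM), Rhox7-ps2 (3.04 CPM) and Hoxa13 (3.10 CPM), and just outside it were Fam155a (2.82 CPM), the muscle gene Myl1 (2.76 CPM) and Anks6 (2.71 CPM). Against LN, Greb1, Zfp629 and Smoc1 stood at 10.3, 10.7 and 11.5 times the LN mean raised by 0.01 CPM, while Tnnt1, Cpne5 and Akr1c12 at 9.63, 9.14 and 8.51 times were left out. Against Hepa1-6, Greb1, Akap6 and Zfp629 stood at 10.02, 10.2 and 10.2 times. Dync1i1, Cfap43 and Asns, at 9.97, 9.74 and 8.58 times, were left out, and the last of these, the asparagine synthetase gene, averaged 667 CPM in E.G7, 77.7 CPM in Hepa1-6 and 5.99 CPM in LN.

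The rule kept Hepa1-6 and LN levels low but set no direction between them, and they were compared (edgeR quasi-likelihood test on the whole table, Benjamini-Hochberg adjusted p under 0.05). All 113 genes passed the filter on low counts, many of them only through their E.G7 libraries. With Hepa1-6 and LN fitted alone, 26 of the 113 passed. That filter asked for reads in more libraries, because the smallest group then held 4 libraries and not 2. The 26 therefore do not show how many genes passed only through E.G7. Of these 26, 16 were higher and 2 lower in Hepa1-6 than in LN. With E.G7 in the fit, 37 of the 113 were higher, 4 lower and 72 not called, or 36.3% called, where 68% of all 20068 genes tested were called (37% higher and 31.1% lower). The rule limited the levels in both groups, and 16 of the 113 had no count in either, so nothing about the genes as a set is read from these counts. Among the 37, 16 had 3 or fewer counts over LN and 10 of these had none. Each gene named here as higher or lower was also called with Hepa1-6 and LN fitted alone.

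Esm1 was higher in Hepa1-6 than in LN, at 2.68 ± 0.46 CPM against 0.0733 ± 0.093 CPM (SD, n = 4 each), with a log2 fold change of 5.31 (SE 0.36, edgeR adjusted p = 1.84e-09). Stard10 was higher at 9.83 ± 1.24 CPM against 1.70 ± 0.63 CPM (log2 2.76, SE 0.20, adjusted p = 9.45e-09), and all 4 Hepa1-6 libraries lay above all LN libraries. The synaptic scaffold gene Dlgap1 was higher (log2 3.46, SE 0.35). Apod and Adam3 were also called higher but had few reads in LN. Apod had 144 counts over Hepa1-6 and 1 over LN, a ratio of 128 (exact 95% interval 22.7 to 5108). Adam3 had 111 counts over Hepa1-6 and 2 over LN, a ratio of 49.5 (13.4 to 414).

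Arpp21 and Sapcd1 were lower in Hepa1-6. Arpp21 was lower in Hepa1-6 (0.133 CPM) than in LN (1.38 CPM) (log2 -3.10, SE 0.44, edgeR adjusted p = 1.48e-05). Sapcd1 stood at 0.066 CPM in Hepa1-6 and 0.454 CPM in LN, a log2 fold change of -2.47. The potassium channel gene Kcnma1 had no count over Hepa1-6 and 24 over LN, and Cpb1 had none over Hepa1-6 and 7 over LN. Both could be tested only because of their E.G7 counts, and no call is given for them. Dntt and Acta2 did not pass, with log2 fold changes of 0.30 (edgeR adjusted p = 0.0912) and 0.38 (adjusted p = 0.126).

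The 2 E.G7 libraries held most of the genes at like levels. The median log2 ratio of replicate 1 to replicate 2 was -0.02 over the 113 and 0.00 over the 11623 genes at 3 CPM or more in E.G7, with SDs of 0.25 and 0.23. Of the 113, 48 were higher in replicate 1 (42.5%, against 50.2% of the 11623). The exact 95% counting interval of the ratio left out 1 for 32 of the 113, 13 above and 19 below, which is 28.3%, against 44.0% of the 11623. This interval narrows as counts rise, and the sets were not matched for level. The shares therefore do not compare how well the libraries repeat each other. Trap1a had a ratio of 0.904 (0.862 to 0.948) and Dntt 1.13 (1.05 to 1.23). Among the ratios farthest from 1 were those of Tln2 (1.47), Megf10 (1.47) and Nuggc (1.45) above it, and Hoxa11 (0.593) and Shisa6 (0.621) below it. By group the ratio of the sums ran between 0.881 for transcription factors and 1.04 for contractile genes.

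**Figure D4:**
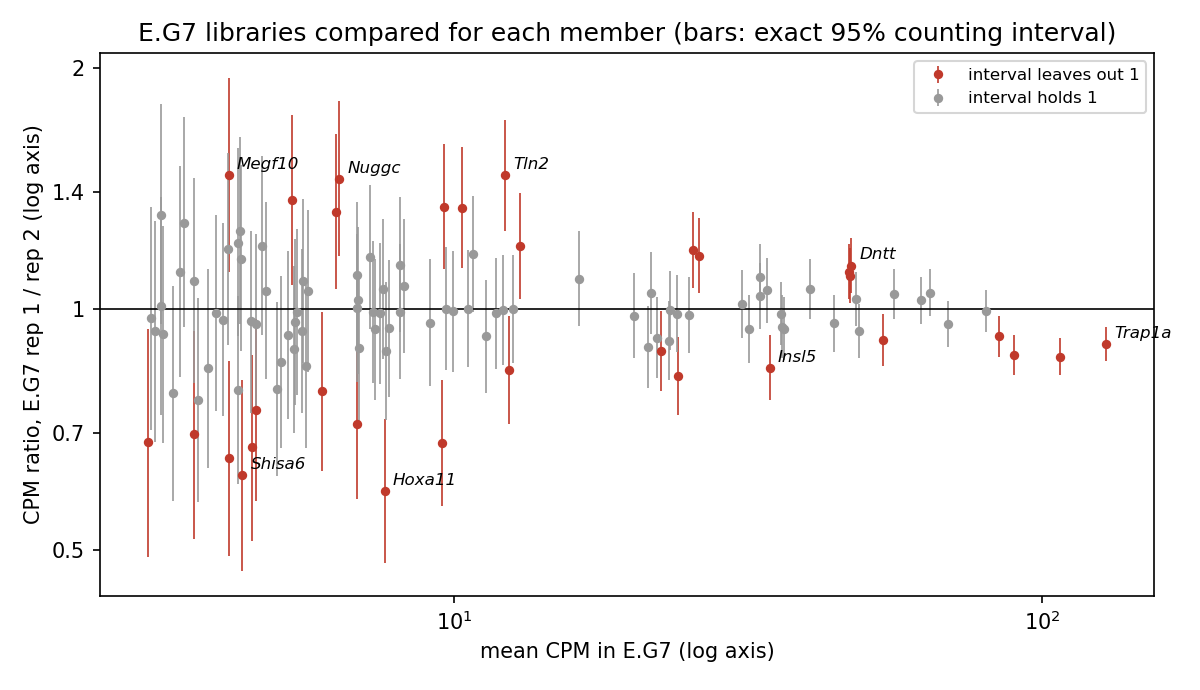
Ratio of CPM in E.G7 replicate 1 to replicate 2 for each of the 113 genes against its E.G7 mean CPM, both on log axes, with exact 95% counting intervals. The ratios spread around 1, and red points mark the 32 genes whose interval leaves out 1.

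Marker lists for candidate sources were compared between E.G7 and the other groups in the same edgeR fit. Its filter on low counts used the libraries of all groups, so a list gene could pass through the reads of a single group. The 21 lists hold 257 genes, and 5 of the 113 genes are on them: Dntt and Arpp21 (immature T cell), Trap1a (germ line and tumour antigen), Fbln1 (fibroblast) and Acta2 (smooth muscle). These 5 were left out of the counts. Of 181 list genes tested, 102 were higher and 30 lower in E.G7 than in LN, against a background of 59.9% called (32.7% higher and 27.2% lower). Against Hepa1-6, 22 were higher and 102 lower in E.G7, where the background was 45.6% called (19.6% higher and 26.1% lower).

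Immature T cell genes other than Dntt and Arpp21 differed in both directions. Rag1 and Rag2, the recombinase genes of developing lymphocytes, had no count in either E.G7 library, and the pre-T receptor gene Ptcra stood at 0.0375 and 0.0752 CPM. Myb, a transcription factor of blood progenitors and T leukaemia, stood at 54.5 and 65.0 CPM in E.G7, 10.6 CPM in Hepa1-6 and 16.7 CPM in LN. It was higher in E.G7 than in LN (log2 1.93, SE 0.12, edgeR adjusted p = 1.96e-09) and than in Hepa1-6 (log2 2.34, SE 0.13, adjusted p = 4.37e-10). Cd8a, Cd8b1 and Cd24a were higher in E.G7 than in LN and lower than in Hepa1-6, with Cd8a at 23.2 CPM in E.G7, 120 CPM in Hepa1-6 and 2.45 CPM in LN. Themis and Cd1d1 were lower in E.G7 than in both. In all, E.G7 had 4 of 7 tested genes above LN and 2 below, and 1 was higher and 5 lower than in Hepa1-6. The list without members summed to 234 and 238 CPM in E.G7, 374 to 394 CPM in Hepa1-6 and 232 to 263 CPM in LN.

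Of 14 tested T leukaemia factors, 9 were higher and 2 lower in E.G7 than in LN, and 2 were higher and 8 lower than in Hepa1-6. The 2 higher than in both were Hoxa10 and Myb. Hoxa10 was higher in E.G7 than in LN (edgeR adjusted p = 4.54e-12), with 700 counts over E.G7 and 1 over LN, a ratio of 1241 (exact 95% interval 222 to 49088), and than in Hepa1-6 (log2 1.10, SE 0.20, adjusted p = 0.000227). Tal1 and Tlx1 had no count in E.G7, and Lmo1 and Tlx3 were at or below 0.113 CPM. Of the germ line list, 7 of 19 genes could be tested. Of the 7, 4 were higher and 0 lower in E.G7 than in LN, and 3 were higher and 1 lower than in Hepa1-6. Rhox5, Xlr3a and Xlr4a were higher in E.G7 than in both groups and Tex14 was higher than in LN. Another 7 of the 19, among them the synaptonemal gene Sycp1, the piRNA pathway genes Mael and Asz1, and Prame, had no count in E.G7. The list without Trap1a summed to 418 and 429 CPM in E.G7, 136 to 160 CPM in Hepa1-6 and 46.9 to 62.5 CPM in LN, and most of the E.G7 sum was Rhox5. Of 8 tested onco-fetal genes, 3 were higher in E.G7 than in LN, and 2 were higher and 4 lower than in Hepa1-6. Among them, the RNA-binding protein gene Igf2bp3 (21.3 and 21.3 CPM in E.G7, 10.4 CPM in Hepa1-6 and 2.95 CPM in LN) was higher in E.G7 than in both. H19 and Igf2bp1, also on that list, had no count in E.G7.

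Of the 17 fibroblast genes other than Fbln1, 12 were under 1 CPM in E.G7, while Fn1 and Pdgfrb were well above it. Decorin (Dcn) stood at 0.15 and 0.828 CPM in E.G7, 82.9 CPM in Hepa1-6 and 0 in LN; biglycan (Bgn) at 0.0375 and 1.13 CPM in E.G7, 60.4 CPM in Hepa1-6 and 0 in LN. Fibronectin (Fn1) stood at 38.6 and 25.8 CPM in E.G7, 806 CPM in Hepa1-6 and 0.383 CPM in LN, and Sparc at 1.24 and 2.11 CPM in E.G7, 51.1 CPM in Hepa1-6 and 0.0621 CPM in LN. Of 15 tested genes without Fbln1, 10 were higher and 2 lower in E.G7 than in LN, and 1 was higher and 9 lower than in Hepa1-6. The gene higher than in Hepa1-6 was Pdgfrb, a receptor of fibroblasts and pericytes, at 14.9 and 12.3 CPM in E.G7, 1.70 CPM in Hepa1-6 and 0.0102 CPM in LN (log2 2.85 against Hepa1-6, SE 0.27, edgeR adjusted p = 3.37e-07). The other fibroblast receptor gene, Pdgfra, was at 0.150 and 0.113 CPM in E.G7. The list summed to 62.9 and 51.7 CPM in E.G7, 967 to 1055 CPM in Hepa1-6 and 14.0 to 18.6 CPM in LN. When the fit held E.G7 and LN alone, 3 of the fibroblast genes were higher in E.G7. Some of the genes tested in the main fit, such as Dcn and Bgn, passed its filter through their Hepa1-6 libraries.

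Most smooth muscle genes other than Acta2 were below 1 CPM in E.G7 (7 of 9). In E.G7 Tagln stood at 0.188 and 0.414 CPM, Cnn1 at 0.225 and 0.414 CPM, Myh11 at 0.150 and 0 CPM, Rgs5 at 0.0750 and 0.0752 CPM, and Cspg4 had no count. Of 9 tested genes, Des and Mylk were higher in E.G7 than in LN, each at or below 0.677 CPM in both E.G7 libraries, and Actg2 was lower. That count of 2 was 0 without E.G7 replicate 2 and 1 with E.G7 and LN fitted alone. Actg2 stood at 18.1 and 18.9 CPM in E.G7, 5.63 CPM in Hepa1-6 and 30.003 CPM in LN, and was the 1 gene higher than in Hepa1-6, where 4 others were lower. Of 6 tested skeletal muscle genes, Myl1 included, 3 were higher and 0 lower in E.G7 than in LN. Against Hepa1-6 the counts were also 3 higher and 0 lower. The skeletal muscle list summed to 23.6 and 21.1 CPM in E.G7, 7.17 to 8.43 CPM in Hepa1-6 and 14.1 to 16.6 CPM in LN. Mylpf (14.3 and 13.0 CPM in E.G7, 3.15 CPM in Hepa1-6 and 9.39 CPM in LN) was higher in E.G7 than in both. Myl1 stood at 2.59 and 2.93 CPM in E.G7 and had no count in Hepa1-6 or LN. It passed the filter on low counts only through its E.G7 libraries, and no call is given for it. No count was found in E.G7 for 7 of 14, among them the myosin genes Myh1, Myh2 and Myh4.

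Endothelial genes other than Esm1, which is on no list, were at 94.2 and 77.8 CPM together in E.G7. They were at 94.1 to 104 CPM in Hepa1-6 and 239 to 261 CPM in LN. Pecam1, which T cells also express, averaged 79.9 CPM in E.G7, 66.7 CPM in Hepa1-6 and 246 CPM in LN. It made up nearly all of the LN sum and most of the E.G7 sum. In Hepa1-6 the list mean was 98.0 CPM, so other endothelial genes held a larger part there. Of 9 endothelial genes tested, 5 were higher and 1 lower in E.G7 than in LN, and 5 were lower than in Hepa1-6. The 5 higher than in LN became 3 without E.G7 replicate 1, without E.G7 replicate 2, and with E.G7 and LN fitted alone. Other lists held single genes that were higher in E.G7 than in both groups. On the keratinocyte list, Perp, a cell junction gene, averaged 154 CPM in E.G7, 31.3 CPM in Hepa1-6 and 0.66 CPM in LN, while Krt14, Krt15 and Trp63 had no count in E.G7. Of 5 keratinocyte genes tested, 1 was higher and 1 lower in E.G7 than in LN, and 1 was higher and 3 lower than in Hepa1-6. On the mast cell list, the carboxypeptidase gene Cpa3 averaged 34.3 CPM in E.G7, 4.35 CPM in Hepa1-6 and 1.83 CPM in LN. Of 12 mast cell genes tested, 9 were higher in E.G7 than in LN (5 with E.G7 and LN fitted alone), and 1 was higher and 6 lower than in Hepa1-6. On the adipocyte list, the carbonic anhydrase gene Car3 averaged 0.939 CPM in E.G7, 0.0189 CPM in Hepa1-6 and 0.0105 CPM in LN. Car3 passed the filter on low counts only through its E.G7 libraries, so its calls are description only. Of 6 adipocyte genes tested, 4 were higher in E.G7 than in LN, and 1 was higher and 3 lower than in Hepa1-6.

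Leukocyte markers also differed between the groups. Of 13 macrophage and neutrophil genes, 12 were higher in E.G7 than in LN and 13 were lower than in Hepa1-6, with sums of 709 and 757 CPM in E.G7, 3249 to 3467 CPM in Hepa1-6 and 27.1 to 40.5 CPM in LN. All 10 dendritic and MHC class II genes were higher in E.G7 than in LN, and 8 were lower than in Hepa1-6. Of 10 B and plasma cell genes, 5 were higher and 3 lower in E.G7 than in LN, and 3 were higher and 1 lower than in Hepa1-6. Of these, Cd79a, a subunit of the B cell receptor, was higher than in both, at 11.0 CPM in E.G7, 5.06 CPM in Hepa1-6 and 4.23 CPM in LN. Of 10 CD8 T and NK cell genes, 8 were higher in E.G7 than in LN, and 6 were lower and 1 higher than in Hepa1-6. That gene, the NK cell receptor gene Klra1, averaged 1.45 CPM in E.G7, 0.0473 CPM in Hepa1-6 and 0 in LN. Klra1 passed the filter on low counts only through its E.G7 libraries, so its calls are description only. Of 5 eosinophil genes, 4 were higher in E.G7 than in LN (2 with E.G7 and LN fitted alone) and 3 were lower than in Hepa1-6. Of 5 erythroid genes, 4 were higher and 1 lower in E.G7 than in LN, and 5 were lower than in Hepa1-6. Of 5 hepatoma genes, 3 were higher and 1 lower in E.G7 than in LN, and 5 were lower than in Hepa1-6; the 3 became 1 without E.G7 replicate 1 and with E.G7 and LN fitted alone. Of the Treg core list, 2 were higher and 7 lower in E.G7 than in LN, and 1 was higher and 9 lower than in Hepa1-6. Of 12 pan T cell genes, 1 was higher and 7 lower in E.G7 than in LN. The number higher than in LN ran from 0 to 1 with each library left out in turn. Against Hepa1-6, 1 pan T cell gene was higher and 4 lower (5 higher with E.G7 and Hepa1-6 fitted alone). The pan T cell list summed to 7268 and 7265 CPM in E.G7, 6763 to 6899 CPM in Hepa1-6 and 8933 to 9392 CPM in LN. The part of any of these cells in the levels of the 113 genes was not tested.

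**Figure D5:**
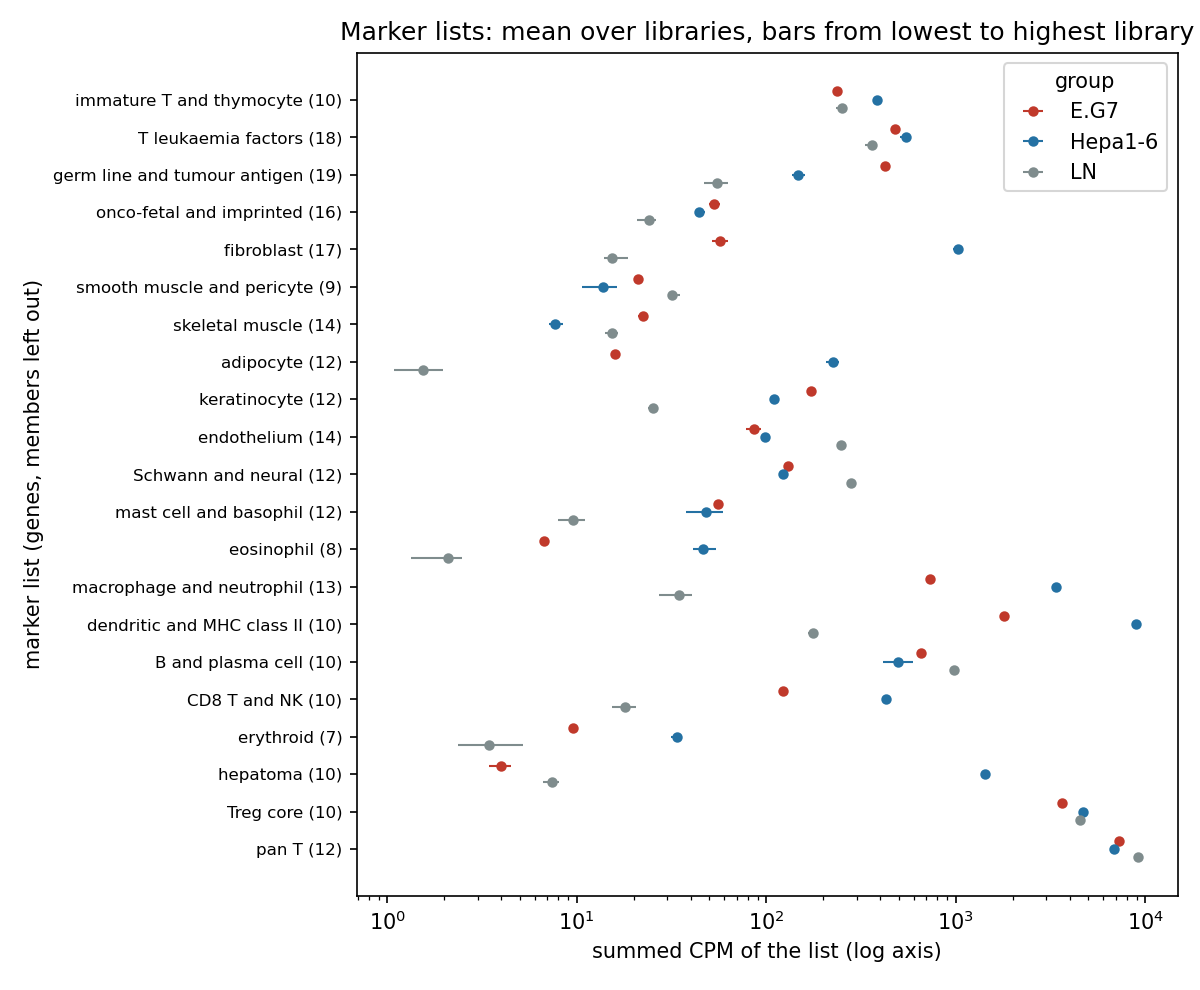
Summed CPM of each marker list in E.G7, Hepa1-6 and LN on a log axis, with members left out; points are means over libraries and bars run from the lowest to the highest library. The fibroblast list is at 967 to 1055 CPM in Hepa1-6 and at 51.7 to 62.9 CPM in E.G7, while the germ line list is highest in E.G7, mostly through Rhox5.

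Some of the genes lie side by side in the genome. With a window of 100 kb, 13 had another of the 113 nearby: Sgip1, Tctex1d1 and Insl5 on chromosome 4, Hoxa7, Hoxa11, Hoxa11os and Hoxa13 on chromosome 6, Cpeb1 and Ap3b2 on chromosome 7 (4934 bases apart), Adam3 and Adam18 on chromosome 8 (2470 bases apart), and Rhox2-ps and Rhox7-ps2 on chromosome X (3366 bases apart). Chromosome X held 8 (7.08%), against 3.12% of the 11623 genes at 3 CPM or more in E.G7. Genes within 100 kb but outside the spans of the 113 numbered 757, of which 331 could be tested. Among these, 125 (37.8%) were higher and 86 (26.0%) lower in E.G7 than in LN, and 86 (26.0%) were higher and 68 (20.5%) lower than in Hepa1-6. At 2-fold or more, 21.8% of the neighbours were higher than in LN and 9.37% higher than in Hepa1-6, against 19.1% and 6.38% of all genes tested. Over all genes tested, 32.7% were higher than in LN and 19.6% higher than in Hepa1-6. A further 92 genes lie inside or across a member and may share its reads.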

How the data were processed

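The deposited table holds the authors' read counts, as whole numbers, in the featureCounts layout with exon positions and lengths (55291 genes, per the file headers). Deposited FPKM tables (counts per gene length and library size, by the authors) list 12930 genes, including 106 of the 113 described here; they served only for that check. The submitters' processing notes name mm10, HISAT2, RSEM, DESeq2, Subread and featureCounts; their roles, versions and strand setting are not given in the sources used here.

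CPM was each count over its library total. The 113 genes, the gene groups and the marker lists were chosen with earlier results of these data known. Counts were fitted in R 4.3.3 with edgeR 4.0.16 (filterByExpr, TMM scaling, robust quasi-likelihood, a term per group over 10 libraries), tested on simulated data with 200 changed genes. Adjusted p-values are Benjamini-Hochberg over 20068 genes, with a threshold of 0.05. SE is the log2 fold change over the square root of F. Ratios between the 2 E.G7 libraries have exact 95% binomial intervals, for counting error only. Libraries of a group differed beyond sampling noise (chi-square per degree of freedom 7.41 to 18.9), so none was taken for a repeat deposit of another. Named genes were Trap1a, Dntt, genes on a marker list, the 10 highest in RPKM (reads per kilobase and library size), those at the extremes of the E.G7 ratio, of the other groups' levels and of the Hepa1-6 test, and those at the rule's limits. Other genes named were chosen after their values were seen. A few genes that these rules would name are not reported here. Gene type used GENCODE M21 (GRCm38), with RefSeq for Clec2m, and exon overlap used the exon positions deposited with the counts.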

Additional observations from a re-analysis of the deposited data

Results flagged for a closer look

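Among 67 groups of 4 libraries whose values were looked at with Dixon's test, 3 had a library farther from the others than the 95% limit allows; chance gives about 5% of groups. The summed CPM of the 113 genes was 37.3 in LN replicate 1, against 29.4 to 30.4 in the other LN libraries. Of that library's sum 8.89 CPM was H2-Q2, and without H2-Q2 the LN libraries held 28.5, 26.5, 28.02 and 25.7 CPM. The fibroblast list without Fbln1 summed to 18.6 CPM in LN replicate 3, against 14.0 to 14.5 CPM in the others. The smooth muscle list without Acta2 summed to 34.9 CPM in LN replicate 2, against 30.6 to 30.7 CPM in the others. The cause was not tested.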

How the results depend on the processing

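The number of genes the rule takes was 174 with an E.G7 minimum of 1 CPM and 49 with 10 CPM. It was 163 with 5 times and 87 with 20 times in place of 10 times, 108 with TMM-scaled CPM (107 of them among the 113), 87 when every library had to meet the rule, and 110 to 114 with each library left out in turn. Summed CPM with TMM scaling was 2161 in E.G7 and 59.5 in Hepa1-6; leaving out a library gave 2172 to 2218 in E.G7, 53.9 to 55.8 in Hepa1-6 and 29.9 to 32.6 in LN. The median log2 ratio of E.G7 replicate 1 to replicate 2 was 5.1e-05 with TMM scaling, against -0.018. For Hepa1-6 against LN, a fit of those groups alone gave 16 higher and 2 lower of 26 genes that passed its filter; leaving out a library gave 35 to 40 higher and 4 to 7 lower, the 7 without LN replicate 3 and without Hepa1-6 replicate 2. Esm1, Stard10, Dlgap1, Apod, Adam3, Arpp21 and Sapcd1 kept their direction and call for that test in every setting. The settings were RLE scaling, no filter, DESeq2, the groups alone, the replicate block and each library left out. Kcnma1 and Cpb1 had no value when the groups were fitted alone, and no call is given for them.

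Replicate numbers did not pair the libraries (correlations of deviations -0.049 to 0.029). With the replicate block, 39 genes were higher and 4 lower in Hepa1-6 than in LN, and list genes numbered 99 higher and 29 lower in E.G7 than in LN and 21 higher and 94 lower than in Hepa1-6. A gene with a count of 0 over a group may still stand at up to 0.0283 CPM in Hepa1-6 and 0.0318 CPM in LN at this depth.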
